A study of Homo sapiens with 12 samples.

Results

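Squamous lineage transcription factors were examined by single-cell RNA sequencing (scRNA-seq) in 3 established lines of HNSCC, squamous carcinoma of the head and neck. The 10 genes were TP63, PITX1, KLF4, KLF5, GRHL1, GRHL2, GRHL3, OVOL1, EHF and ELF3, taken by name from the 33514 gene symbols of the 3 count tables. All 10 were present and all 10 passed the filter on low counts, which kept 17897 genes. The 10 had been chosen with earlier results of these data known. Their shares set beside those of all genes are therefore descriptions. The lines SCC1, SCC6 and SCC25 were each kept for 5 days with 100 nM cetuximab, an antibody that blocks EGFR (the receptor for epidermal growth factor), or with the buffer PBS as control. The 6 groups held 2 replicates each, 12 samples in all. No transgene or knockout was involved, and each line is a single tumour-derived culture, so the lines stand for 3 tumours and not for HNSCC at large. Whether the replicates were separate cultures was not stated. The p-values therefore measure the spread between these samples, which may be technical.

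In stratified epithelium a basal layer divides, and the cells that leave it stop dividing and build the keratinised layers above. TP63, a member of the p53 family, holds the basal programme. KLF5 is a zinc finger factor linked to growth of the basal layer, whereas KLF4 acts in the differentiating layers and in barrier formation. The grainyhead-like factors GRHL1, GRHL2 and GRHL3 control desmosomal, junctional and barrier genes. OVOL1 is a zinc finger repressor that restrains division in differentiating cells. EHF and ELF3 belong to the epithelium-specific branch of the ETS family, and PITX1 is a homeobox factor of the oral ectoderm and hindlimb. EGFR signalling is known to oppose terminal differentiation in keratinocytes.

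The samples held 961 to 2854 cells and 57057402 to 112170073 unique molecular identifiers (UMIs, 1 per captured transcript), with a median of 24078.5 to 54864 UMIs per cell. SCC6 cetuximab replicate 1 was the shallowest per cell. Any 2 replicates had 3 to 10 cell barcodes in common, and samples from unlike groups 1 to 13. The defining keratins of squamous epithelium were abundant in SCC1 and SCC25 but close to absent in SCC6. As plain CPM (UMIs of a gene scaled to an equal total per sample), KRT5 ranged from 370 to 599 in SCC1 and from 994 to 2093 in SCC25, against 0.967 to 4.57 in SCC6. KRT14 ranged from 0.379 to 2.58 plain CPM in SCC6. The label of a squamous line therefore rested in SCC6 on KRT17 (440 to 2449 plain CPM), SFN and EPCAM. PTPRC, CD3E, MS4A1 and LYZ of leukocytes and PECAM1 of endothelium were at or near 0 in every line. The other leukocyte markers, CD68 and CD14, were detected, CD14 mainly in SCC1. CD68, a lysosomal protein abundant in macrophages, ranged from 116 to 188 plain CPM in SCC25, and CD14 from 9.15 to 14.03 in SCC1. The 6 leukocyte markers summed to 16.9 to 31.7 plain CPM in SCC1, 3.41 to 25.5 in SCC6 and 119 to 193 in SCC25.

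The levels of the members are UMIs summed over the cells of a sample and given as CPM after further scaling by the trimmed mean of M values (TMM). Every CPM from here on has this scaling unless called plain. They compare samples for 1 gene and do not rank genes, because 3′ counts are not corrected for capture of each transcript. Tests were made with edgeR on the summed counts, and adjusted p-values were corrected over all 17897 genes with a threshold of 0.05.

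Among the PBS controls the lines differed most in EHF. EHF stood at 5.51 and 5.71 CPM in the 2 SCC1 PBS samples, at 85.7 and 34.9 in SCC6 and at 52.3 and 46.8 in SCC25. Every SCC6 and SCC25 sample lay above both SCC1 samples. The log2 difference was 3.43 ± 0.57 (SE) for SCC6 over SCC1 and 3.14 ± 0.57 for SCC25 over SCC1, with edgeR adjusted p of 0.00102 and 0.00164. SCC6 and SCC25 did not differ beyond their spread (log2 difference −0.28 ± 0.52, edgeR adjusted p = 0.699).

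PITX1 was also lowest in SCC1. It was measured at 35.7 and 36.7 CPM in SCC1 PBS, 114 and 91.3 in SCC6 PBS, and 143 and 136 in SCC25 PBS. The groups did not overlap, and PITX1 exceeded SCC1 by 1.51 ± 0.19 on the log2 scale in SCC6 and by 1.95 ± 0.19 in SCC25 (edgeR adjusted p = 0.00016 and 3.96e-05). The step from SCC6 to SCC25 did not pass the test (0.44 ± 0.18, edgeR adjusted p = 0.0811).

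TP63 was highest in SCC25, at 71.9 and 31.8 CPM, against 22.9 and 15.8 in SCC1 and 14.1 and 6.81 in SCC6. SCC25 stood apart from SCC1 (log2 difference 1.42 ± 0.48, edgeR adjusted p = 0.0365) and from SCC6 (2.31 ± 0.49, edgeR adjusted p = 0.00421), while SCC1 and SCC6 did not differ beyond their spread (edgeR adjusted p = 0.165). Among the PBS controls, the line with almost no KRT5 and KRT14 thus also had the lowest TP63 readings. With cetuximab this did not hold, as TP63 read 21.5 and 12.5 CPM in SCC6 and 18.7 and 14.4 in SCC1. The 2 SCC25 PBS samples differed from each other more than the SCC1 and SCC6 samples did in CPM.

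KLF4 was higher in SCC25 (47.2 and 54.7 CPM) than in SCC6 (19.2 and 12.6), by 1.68 ± 0.47 on the log2 scale (edgeR adjusted p = 0.0169). Its SCC1 values of 22.6 and 27.8 lay between, and neither difference from them passed the test. The log2 difference over SCC1 was 1.02 ± 0.47 for SCC25 and −0.66 ± 0.46 for SCC6 (edgeR adjusted p = 0.107 and 0.287). GRHL1 and GRHL3 were lowest in SCC25, which was not so for GRHL2. GRHL1 read 7.0 and 6.06 CPM in SCC1 PBS, 6.17 and 4.22 in SCC6 PBS, and 2.57 and 3.55 in SCC25 PBS. It was lower in SCC25 than in SCC1 (log2 difference −1.09 ± 0.28, edgeR adjusted p = 0.0103) and than in SCC6 (−0.76 ± 0.28, edgeR adjusted p = 0.0482). GRHL3 was scarce throughout, with 4 to 98 UMIs per sample, and was lower in SCC25 than in SCC1 (−2.37 ± 0.62, edgeR adjusted p = 0.0116). Its difference between SCC25 and SCC6 did not pass the test (−0.95 ± 0.63, edgeR adjusted p = 0.256).

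The remaining members, KLF5, GRHL2, OVOL1 and ELF3, passed none of the 3 tests between lines. In all, 2 members were higher in SCC6 than in SCC1 and 0 lower, beside 21.5% of all genes higher and 18.6% lower. SCC25 exceeded SCC1 in 3 members and fell below it in 2, beside 23.4% and 17.3% of all genes. Against SCC6, SCC25 was higher in 2 members and lower in 1, beside 22.2% and 18.7%. The shares of members called were near this background. For SCC25 against SCC1 the count of 5 members went to 2 without SCC25 PBS replicate 1, to 4 without SCC25 PBS replicate 2, and to 3 without either one of the SCC1 PBS samples.

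**Figure D1:**
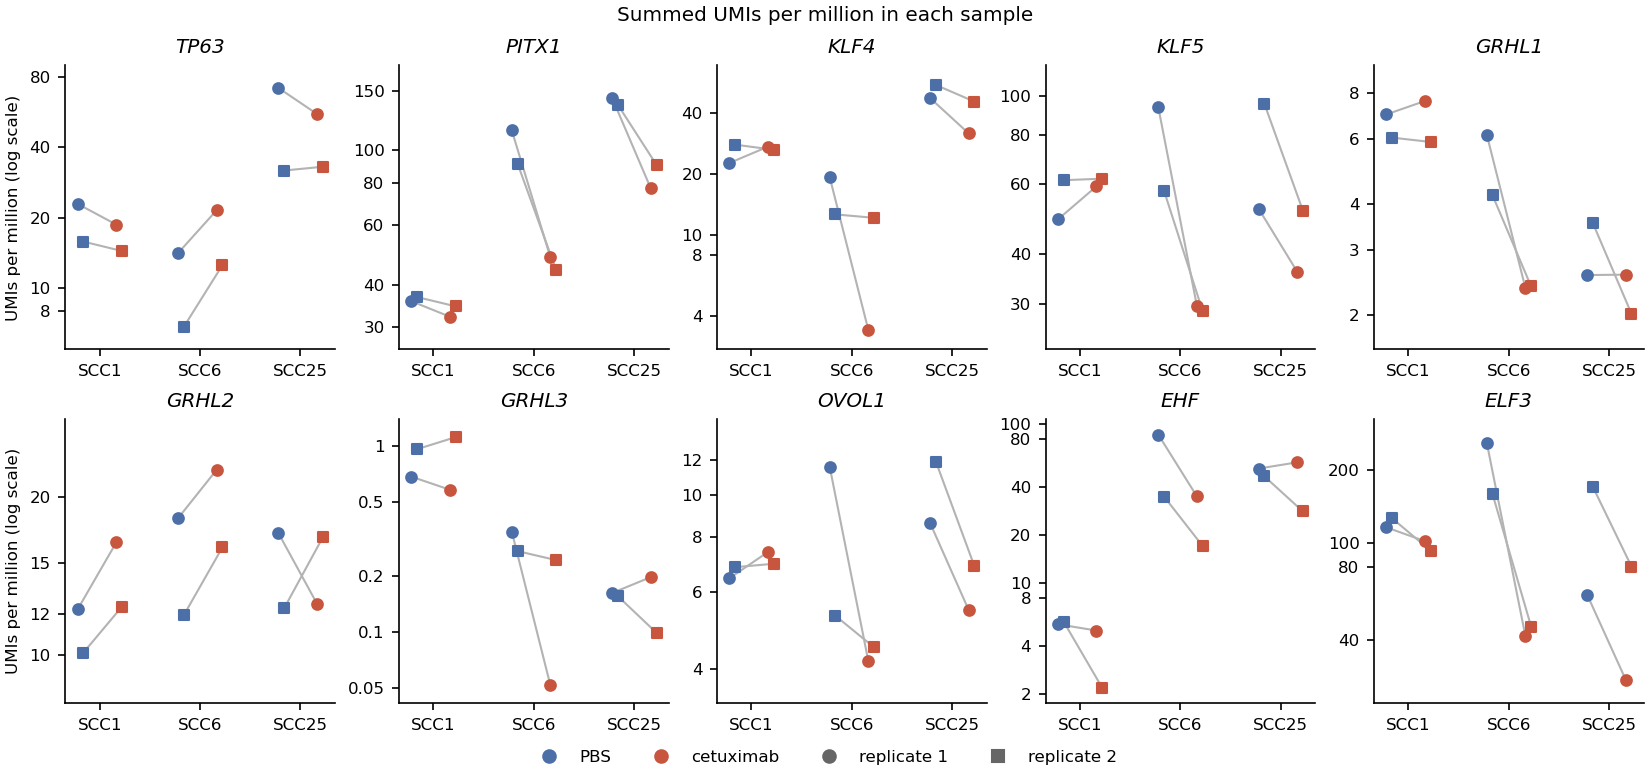
Summed CPM (log scale) of the 10 genes in each of the 12 samples, with PBS samples in blue, cetuximab samples in red, circles for replicate 1, squares for replicate 2 and grey lines joining samples of the same number. All genes except TP63 and GRHL2 drop in both SCC6 pairs, though only slightly in replicate 2 for KLF4. EHF is lowest in SCC1, and TP63 and GRHL2 lie higher with cetuximab in both SCC6 pairs.

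In SCC6, ELF3, PITX1 and KLF5 fell with cetuximab, 3 of the 10 genes, and 0 of the 10 rose when the samples were not paired. Over all genes 1.3% were called lower and 2.51% higher in this line. The median log2 change was −1.08 over the 10 members, beside 0 over all genes tested. As the members were chosen with earlier results of these data known, neither comparison with all genes is a test.

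ELF3 showed the widest change. It was read at 258 and 159 CPM in the 2 PBS samples and at 41.7 and 45.5 in the 2 cetuximab samples. Both treated samples lay far below both controls, and the log2 change was −2.26 ± 0.53 (edgeR adjusted p = 0.0463). PITX1 read 114 and 91.3 in PBS and 48.2 and 44.1 in cetuximab, again without overlap, and fell by 1.16 ± 0.19 on the log2 scale (edgeR adjusted p = 0.0122). KLF5 went from 94.0 and 57.8 to 29.7 and 28.8 CPM, a log2 change of −1.38 ± 0.33 (edgeR adjusted p = 0.0474).

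The bases before the annotated starts of these 3 genes are shown because the genes moved together. Each run is the 250 bases upstream of a transcription start in the RefSeq promoter table (GRCh38.p14), 5′ to 3′ on the gene's strand. Capitals mark matches, on either strand, to TATAAA or to the GC box GGGCGGG. KLF5 has 2 annotated starts. The PITX1 start used lies within the annotated gene, which reaches to position 135034789 on its minus strand. Its window is therefore inside the gene, and the bases before the outer end are not shown.
PITX1, chr5:135034229-135034478, minus strand: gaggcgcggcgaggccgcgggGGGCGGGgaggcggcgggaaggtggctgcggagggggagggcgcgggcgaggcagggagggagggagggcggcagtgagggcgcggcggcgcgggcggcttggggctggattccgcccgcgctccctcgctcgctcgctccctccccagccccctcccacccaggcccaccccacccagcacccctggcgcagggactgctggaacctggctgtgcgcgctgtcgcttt
KLF5, upstream start, chr13:73054726-73054975, plus strand: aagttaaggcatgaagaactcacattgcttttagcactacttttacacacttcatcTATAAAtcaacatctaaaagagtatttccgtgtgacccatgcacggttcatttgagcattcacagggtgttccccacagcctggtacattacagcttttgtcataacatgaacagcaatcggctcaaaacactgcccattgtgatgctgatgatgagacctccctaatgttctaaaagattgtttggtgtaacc
KLF5, downstream start, chr13:73058755-73059004, plus strand: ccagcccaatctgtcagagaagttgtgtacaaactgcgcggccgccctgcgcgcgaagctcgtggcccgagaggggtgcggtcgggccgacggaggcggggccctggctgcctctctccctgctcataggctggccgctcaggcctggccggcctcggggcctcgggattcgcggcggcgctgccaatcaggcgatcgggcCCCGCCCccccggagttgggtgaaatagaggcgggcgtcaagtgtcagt
ELF3, chr1:202010337-202010586, plus strand: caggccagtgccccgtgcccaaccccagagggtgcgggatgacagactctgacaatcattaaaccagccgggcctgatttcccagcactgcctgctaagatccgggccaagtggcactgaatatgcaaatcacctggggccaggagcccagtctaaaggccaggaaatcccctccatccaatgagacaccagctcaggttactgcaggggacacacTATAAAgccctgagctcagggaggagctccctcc

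The 3 genes differed in these windows. ELF3 held TATAAA 34 bases before its start and its window was 58.4% G or C. The PITX1 window was 79.2% G or C, with 1 GC box 229 bases before the start within the gene. The downstream KLF5 window (70.8% G or C) held 1 GC box and the upstream one (40.8%) 1 TATAAA. In windows of this length, TATAAA was found in 10.7% and GGGCGGG in 31.5% of 35116 entries. None of the 4 windows held the AP-1 letters TGACTCA, the ETS letters ACCGGAAG, the grainyhead letters AACCGGTT or the KLF letters CCACACCC on either strand, which 4.20%, 1.78%, 0.117% and 2.97% of all windows held.

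The replicate numbers were taken to pair the samples, which the labels do not state. Taking the pairs as a block narrowed the errors in SCC6. With the replicate block 5 members were called lower and 1 higher, beside 10.1% of all genes lower and 9.94% higher. The 2 members added on the lower side were GRHL1 and EHF. GRHL1 read 6.17 and 4.22 CPM in PBS and 2.37 and 2.39 in cetuximab, without overlap. Its log2 change of −1.13 ± 0.28 missed the threshold without the block (edgeR adjusted p = 0.0544) and passed with it (−1.10 ± 0.24, edgeR adjusted p = 0.0158). EHF went from 85.7 to 35.1 in the first pair and from 34.9 to 17.1 in the second, so that the groups overlapped slightly although both treated samples lay below the control of their own number. Its adjusted p was 0.238 without the block and 0.0248 with it (edgeR).

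TP63 was the 1 member called higher in SCC6, and this with the block. It read 14.1 and 6.81 CPM in PBS and 21.5 and 12.5 in cetuximab. The groups overlapped, but each treated sample exceeded the control of its own number, and the change of 0.70 ± 0.47 (edgeR adjusted p = 0.452) became 0.74 ± 0.15 with the block (edgeR adjusted p = 0.0134). With the block, the basal factor thus changed in the opposite direction to ELF3, KLF5, PITX1, GRHL1 and EHF.

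The other SCC6 members passed neither fit. OVOL1 read 11.6 and 5.29 CPM in PBS and 4.17 and 4.48 in cetuximab (log2 change −0.96 ± 0.33, edgeR adjusted p = 0.14). KLF4 depended on 1 sample. It stood at 19.2 and 12.6 in PBS, at 3.41 in cetuximab replicate 1 and at 12.1 in cetuximab replicate 2, with a log2 change of −1.03 ± 0.47 (edgeR adjusted p = 0.255). GRHL3 was at most 0.346 CPM in SCC6 (−1.03 ± 0.64, edgeR adjusted p = 0.405), and GRHL2 read 18.2 and 11.9 in PBS and 22.6 and 16.1 in cetuximab (0.36 ± 0.30, edgeR adjusted p = 0.553).

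Without overlap of the groups, 7 of the 10 members were lower in the SCC6 cetuximab samples, beside 21.4% of all genes. Among the 7 were GRHL3, with 29 and 25 UMIs in PBS and 4 and 22 in cetuximab, and KLF4, at 12.6 against 12.1 CPM in replicate 2. The calls depended on single samples. Leaving out SCC6 PBS replicate 1 or SCC6 cetuximab replicate 1 left 0 members called, leaving out cetuximab replicate 2 left 1, and leaving out PBS replicate 2 gave 4.

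The summed proliferation list of 25 mitotic genes went from 2685 and 4231 CPM to 2086 and 2701 in SCC6. When only cells at or under the median proliferation share of their line were summed, an alternative added after the data were seen, ELF3, PITX1, KLF5 and GRHL1 were called lower in SCC6 (edgeR adjusted p = 0.025, 0.0209, 0.029 and 0.0402). Of 7 fibroblast markers 3 were called higher in SCC6, and their sum went from 1.13 and 3.33 to 27.3 and 23.0 CPM, with COL1A2 and PDGFRA at or near 0 (PDGFRA at most 0.0921 plain CPM). Of 6 leukocyte markers 2 were tested and CD68 was called lower (the sum went from 30.6 and 13.3 to 3.34 and 4.33 CPM), with PTPRC and MS4A1 at or near 0. Their part in the members' change was not tested.

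**Figure D2:**
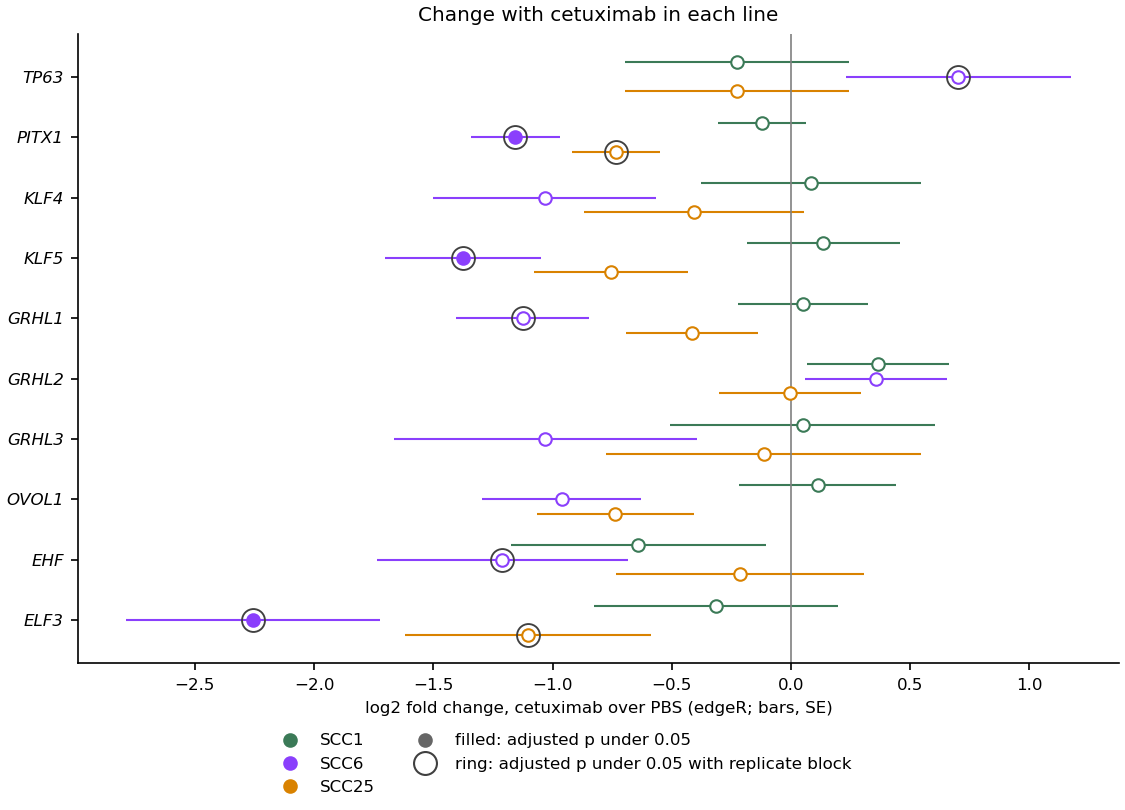
Log2 fold change of each gene with cetuximab over PBS in SCC1 (green), SCC6 (purple) and SCC25 (orange), with bars for the SE of the edgeR fit on 2 replicates per group. Filled points (ELF3, PITX1 and KLF5 in SCC6) had an adjusted p under 0.05, and rings mark points that were under 0.05 with the replicate block.

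In SCC25 all 10 log2 changes were below 0, with a median of −0.41 beside −0.01 over all genes, but none passed the test. The edgeR fit called 0% of all genes in this line, with 1041 genes and 3 members at an unadjusted p under 0.05, and DESeq2 called 101 genes and 1 member, PITX1. With the replicate block PITX1 and ELF3 were called lower, beside 0.207% of all genes. A single block shared by the 3 lines called neither (edgeR adjusted p = 0.113 and 0.425).

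PITX1 in SCC25 read 143 and 136 CPM in PBS and 77.2 and 90.5 in cetuximab. Both treated samples were below both controls, with a log2 change of −0.74 ± 0.18 (edgeR adjusted p = 0.467 without the block, 0.0465 with it). ELF3 differed more between replicates than between treatments, at 61.5 and 170 in PBS and 27.6 and 80.2 in cetuximab. Within each pair the drop was alike, so the change of −1.10 ± 0.52 (edgeR adjusted p = 0.875) became −1.12 ± 0.19 with the block (edgeR adjusted p = 0.0413).

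KLF5 read 52.1 and 95.7 CPM in SCC25 PBS and 36.2 and 51.4 in cetuximab, and OVOL1 8.62 and 11.9 against 5.46 and 6.86. Neither group pair overlapped, and neither change passed a test (log2 change −0.76 ± 0.32 for KLF5 and −0.74 ± 0.33 for OVOL1). Together with PITX1 and KLF4, 4 of the 10 members were lower in cetuximab without overlap, beside 15.3% of all genes. The summed proliferation list went from 2099 and 2466 to 1755 and 1658 CPM in SCC25, and the sum of the fibroblast markers from 19.9 and 41.2 to 44.6 and 83.0 (edgeR called 1 of 7 higher with the block). Their part in these values was not tested.

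In SCC1 no member was called by edgeR, with or without the block (0 and 1 member at an unadjusted p under 0.05). The fit without the block called 0.0168% of all genes (3 genes, with 1570 at an unadjusted p under 0.05), and 4.45% with the block, and DESeq2 called 271 genes and 0 members. PITX1 read 35.7 and 36.7 CPM in PBS and 32.1 and 34.5 in cetuximab. Without overlap of the groups, 3 members were lower in cetuximab (PITX1, EHF and ELF3), beside 20.4% of all genes, and 2 higher (GRHL2 and OVOL1), beside 22.3%. ELF3 read 116 and 126 in PBS and 102 and 92.9 in cetuximab (log2 change −0.32 ± 0.51), and EHF 5.51 and 5.71 in PBS and 5.02 and 2.19 in cetuximab (−0.64 ± 0.53). KLF5 and OVOL1 were higher in both treated samples than in the controls of the same number, by ratios of 1.21 and 1.01 for KLF5 and 1.15 and 1.02 for OVOL1. The summed proliferation list went from 2090 and 2723 to 721 and 1504 CPM in SCC1. EdgeR called 0 of its 25 genes without the block (19 at an unadjusted p under 0.05, 6 called by DESeq2) and 25 lower with it. The fibroblast markers summed to 7.52 and 7.23 CPM in PBS and 15.4 and 16.6 in cetuximab (edgeR called 3 of 7 higher with the block). The part of either list in the members' values was not tested.

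Across the 3 lines, PITX1 was the 1 member called lower, by 0.67 ± 0.16 on the log2 scale (edgeR adjusted p = 0.0383), beside 1.13% of all genes. PITX1 and ELF3 were lower in 6 of 6 same-number pairs, as were 10.6% of all genes. With KLF4 and EHF, 4 members were lower in at least 5 of 6, beside 23.5% of all genes, and 1, GRHL2, was higher in at least 5, beside 23.9%. With the block, ELF3 (−1.21 ± 0.29, edgeR adjusted p = 0.0339) and EHF (−0.74 ± 0.20, edgeR adjusted p = 0.0489) joined PITX1, beside 5.55% of all genes lower. The call on PITX1 across lines was lost in 10 of the 12 fits that left out 1 sample. Those without SCC1 PBS replicate 1 and without SCC1 cetuximab replicate 2 kept 1 member called.

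Whether the response differed between lines was tested as an interaction in the model. The edgeR fit called 0% of all genes (1318 genes and 3 members, PITX1, KLF5 and GRHL1, at an unadjusted p under 0.05), and DESeq2 called 287 genes and 1 member. With the block the interaction was called for ELF3 (edgeR adjusted p = 0.0354), beside 1.29% of all genes, and was lost with a block shared by the lines (edgeR adjusted p = 0.324). The log2 change of ELF3 in SCC6 minus that in SCC1 was −1.90, and in SCC25 minus that in SCC1 it was −0.80. For the other members a difference between lines was not established with edgeR.

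In single cells of SCC6, both the share of cells with an ELF3 UMI and the ELF3 UMIs per positive cell were lower with cetuximab. Each cell was thinned to 15000 UMIs to put samples on 1 depth, which kept 23063 of 23914 cells, and a cell was positive with 1 UMI. The background share, from PTPRC, CD3E, ALB and HBB, was at most 0.137% per sample. In SCC6, ELF3 was found in 76.7% (exact binomial 95% interval 75.0% to 78.3%) and 75.2% (73.4% to 76.9%) of cells under PBS and in 33.7% (31.9% to 35.6%) and 34.7% (32.4% to 37.1%) under cetuximab. These intervals cover counting error only. Without thinning the shares were 88.5% and 89.5% under PBS and 45.0% and 64.0% under cetuximab. Among positive cells the mean count went from 3.66 ± 0.92 to 1.79 ± 0.03 UMIs (SD, n = 2).

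The share of PITX1-positive cells in SCC6 was 67.5% ± 4.6 in PBS and 49.0% ± 3.0 in cetuximab (SD, n = 2). In SCC25 they went from 80.8% ± 2.1 to 65.7% ± 3.3, and in SCC1 from 45.0% ± 3.3 to 42.7% ± 0.52. KLF5 went from 56.4% ± 9.2 to 32.7% ± 0.99 in SCC6. The treated samples of SCC6 and SCC25 lay below the controls for both PITX1 and KLF5. In SCC25, KLF5 stood at 49.2% and 66.6% in PBS and at 40.4% and 48.0% in cetuximab. The SCC1 values for KLF5 were instead 51.2% and 55.9% in PBS and 63.0% and 58.3% in cetuximab.

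In SCC6, TP63 was found in 14.7% and 8.25% of cells under PBS and in 26.8% and 17.2% under cetuximab, so that here the groups did not overlap. Without thinning they were 27.4% and 19.6% against 40.01% and 43.4%. EHF-positive cells numbered 8.31% and 7.44% in SCC1 PBS against 61.3% and 35.8% in SCC6 PBS and 50.1% and 44.7% in SCC25 PBS. GRHL1 reached 9.63% to 13.9% of cells in SCC1 and 3.06% to 4.79% in SCC25. GRHL3 was found in 0.915% to 1.71% of SCC1 cells. In SCC6 and SCC25 its share was 0.1% to 0.377%, in part at or below the background, which is not read as expression. A typical cell held UMIs of 2 to 4 members at this depth, and no cell held all 10.

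**Figure D3:**
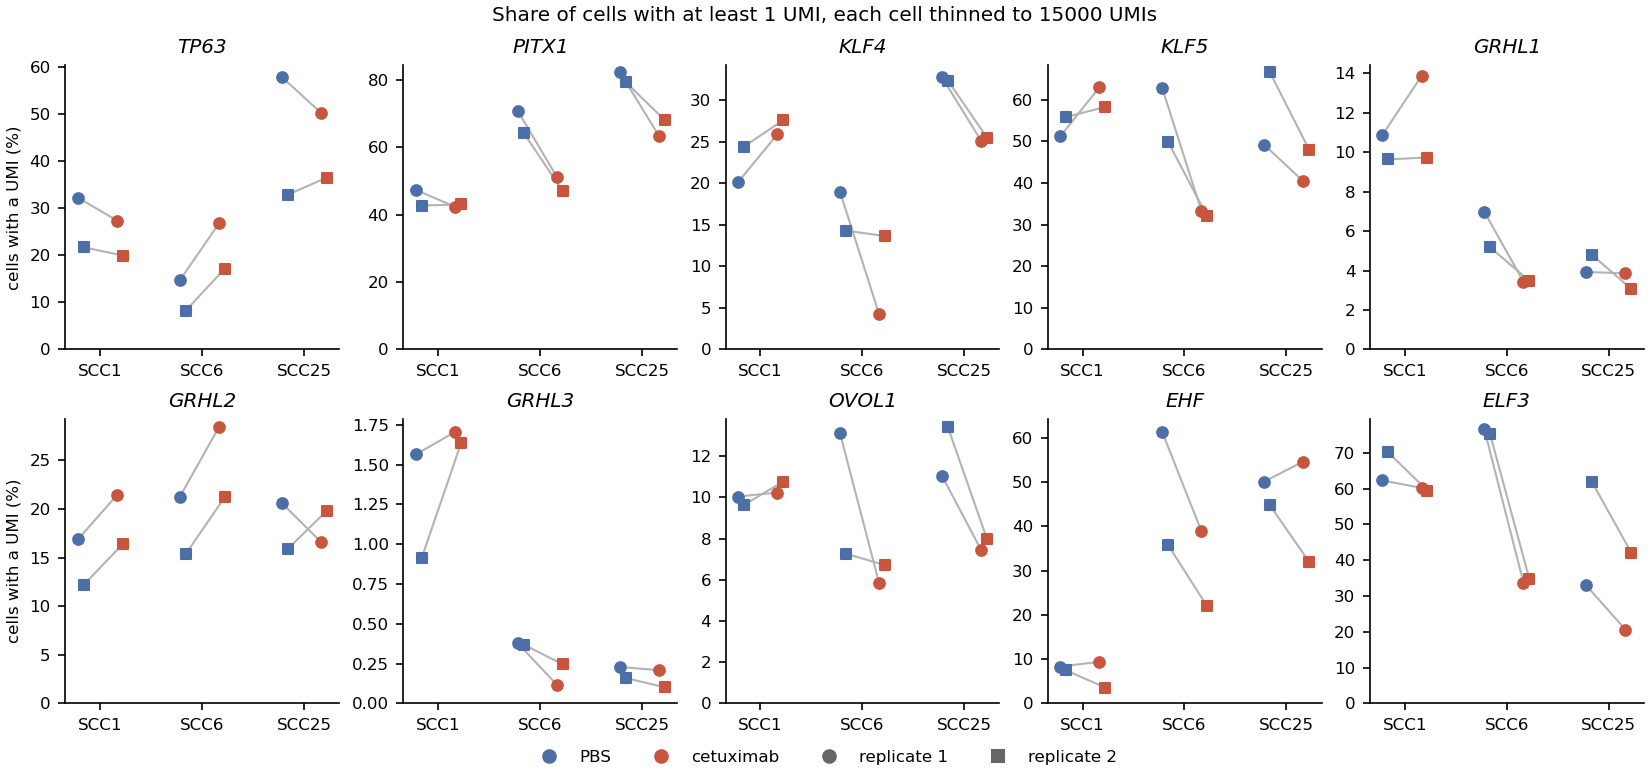
Share of cells (%) with at least 1 UMI of each gene after thinning every cell to 15000 UMIs, in the 12 samples, with blue for PBS, red for cetuximab, circles and squares for replicates 1 and 2 and lines joining equal numbers. The ELF3 share in SCC6 falls from above 75% to below 35% in both pairs.

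Within samples the members were only loosely tied to each other. Over the 45 pairs, the closest was KLF5 with ELF3, with a Pearson r across thinned cells of 0.142 in the median sample (0.0394 to 0.262) and above 0 in 12 of 12 samples. KLF4 with OVOL1 followed at a median of 0.1, and cells with both were more frequent than the product of the 2 shares in every sample, by a ratio of 1.06 to 2.50. TP63 with ELF3 lay at the opposite end, with a median r of −0.0511, above 0 in 2 of 12 samples. These values come from sparse counts of 1 thinned depth and are given as a description.

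Cells with and without a member were then compared for 3 programmes and for proliferation. The 39 measured genes of the squamous differentiation list (cornified envelope, late keratin and protease genes) had more UMIs in KLF5-positive and EHF-positive cells than in negative cells in 12 of 12 samples, and in 11 of 12 for GRHL1, OVOL1 and ELF3. For PITX1 this held in 10 of 12, for TP63 and KLF4 in 9, for GRHL3 in 8 and for GRHL2 in 5. Over the 4 samples of SCC1 the ratio was 1.61 to 1.87 for GRHL1, 1.45 to 1.68 for ELF3, 1.27 to 1.49 for KLF5, 1.27 to 1.54 for OVOL1 and 1.07 to 1.69 for EHF. In SCC6 it was 0.988 to 1.06 for GRHL1, 1.01 to 1.19 for ELF3 and 1.02 to 1.12 for KLF5, and in SCC25 1.14 to 1.28, 0.952 to 1.21 and 1.04 to 1.36. The difference between the lines in these ratios was not tested.

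The basal layer list of 15 genes (basal keratins, integrins and laminins) went the other way for ELF3, with fewer UMIs in positive cells in 10 of 12 samples (median ratio 0.91). It was higher in TP63-positive cells in 10 of 12 samples (median ratio 1.13). In KLF4-positive and KLF5-positive cells it was higher in 12 of 12, at median ratios of 1.12 and 1.05 (lowest 1.02 and 1.00). For EHF and GRHL2 the basal list was higher in positive cells in only 4 of 12 samples, and for PITX1 in 5. For GRHL3 it was higher in 7, for GRHL1 in 8 and for OVOL1 in 9. The epithelial junction list of 18 genes (cadherin, claudins and desmosomal genes) had more UMIs in positive cells in 12 of 12 samples for KLF5, GRHL1, OVOL1, EHF and ELF3, at median ratios of 1.06 to 1.11. For GRHL2, known for its control of junction genes, the ratio was 0.959 to 1.04. CLDN4 stands in both the differentiation and the junction list. Proliferation UMIs were higher in EHF-positive cells in 11 of 12 samples and lower in GRHL2-positive and TP63-positive cells in 10 of 12. Such ratios were not computed for genes outside the members, so a link particular to a member was not tested.

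**Figure D4:**
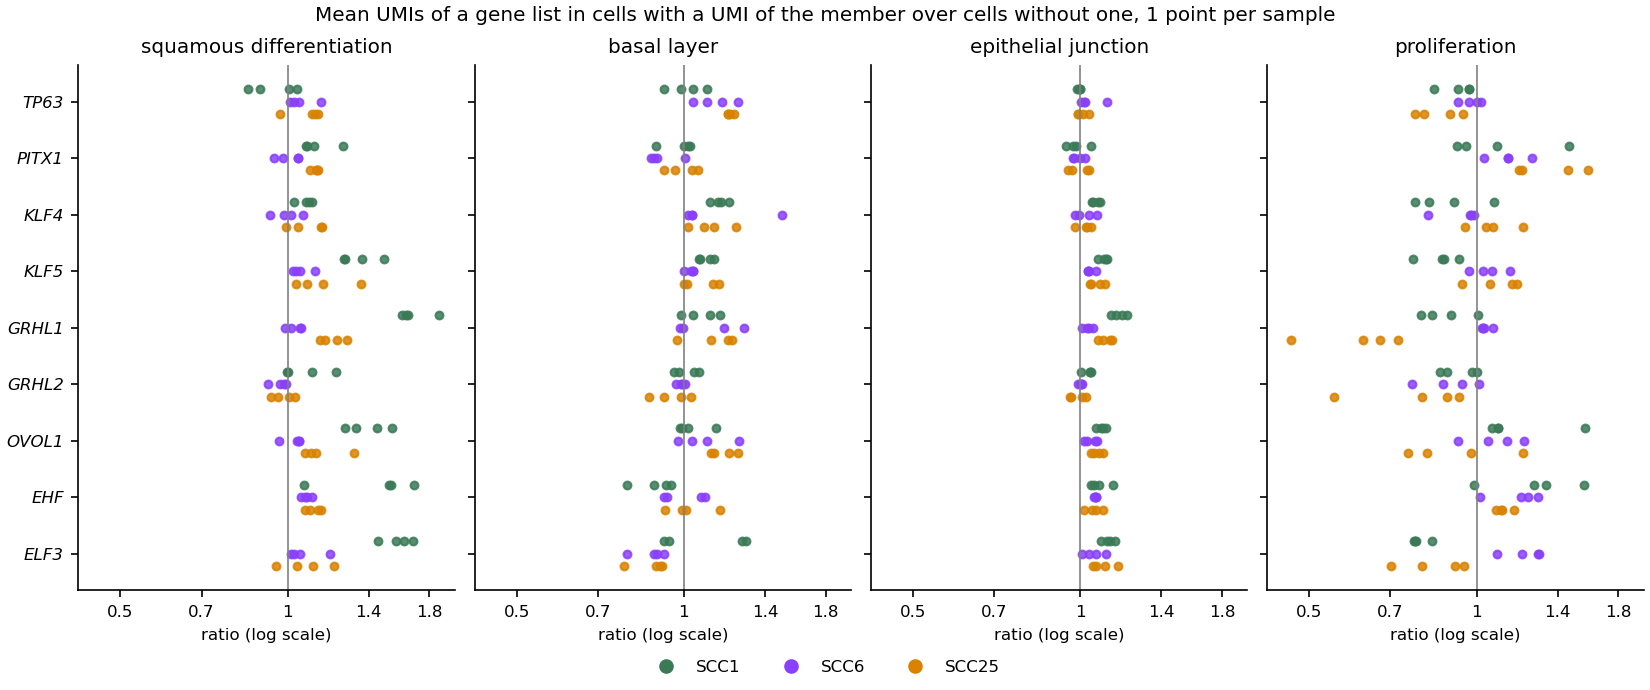
Ratio (log scale) of the mean UMIs of a gene list in cells with a UMI of the member to that in cells without one, with 1 point for each of the 12 samples coloured by line (SCC1 green, SCC6 purple, SCC25 orange). For squamous differentiation, the SCC1 points of GRHL1, ELF3, KLF5 and OVOL1 lie between 1.27 and 1.87, and EHF spreads from 1.07 to 1.69, and ELF3 lies mostly left of 1 for the basal layer. GRHL3 is not drawn because few cells held a UMI of it.

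The neighbouring regulators were followed in a list of 24 partner lineage factors, of which 23 were tested. In SCC6, 2 were called lower and 2 higher, with a median log2 change of −0.23 beside 0 over all genes. SOX2, a squamous oncogene often amplified with TP63, fell by 3.12 ± 0.64 on the log2 scale (edgeR adjusted p = 0.0288), from 2.14 and 3.28 to 0.438 and 0.188 CPM. CEBPB, which acts in early differentiation, went from 529 and 379 to 230 and 252 CPM (log2 change −0.92, edgeR adjusted p = 0.0414). MAF, known for its part in late epidermal differentiation, rose from a low level, from 0.0239 and 0.109 to 1.60 and 0.553 CPM (3.95 ± 0.77, edgeR adjusted p = 0.0328). With the replicate block 7 of the 23 were lower and 2 higher, beside 10.1% and 9.94% of all genes. In SCC1 and SCC25 edgeR called 0 of 23 (4 and 2 at an unadjusted p under 0.05, with 1 and 0 called by DESeq2, and 2 and 0 with the block). Across lines SOX15 was the 1 partner called lower (−0.43 ± 0.11, edgeR adjusted p = 0.049).

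Of the downstream lists in SCC6, 1 of 15 basal layer genes was called, KRT17, higher by 1.64 ± 0.39 (edgeR adjusted p = 0.0463). Of 30 tested differentiation genes, EMP1 was lower (−2.73 ± 0.37, edgeR adjusted p = 0.00798) and TGM1, the transglutaminase of the cornified envelope, higher (2.11 ± 0.50, edgeR adjusted p = 0.0457). With the replicate block 7 of the 15 basal genes were called (5 higher) and 8 of the 30 differentiation genes (3 higher). In that fit 9.94% of all genes were called higher and 10.1% lower in SCC6. Of the 18 junction genes edgeR called 0 (4 at an unadjusted p under 0.05, 2 called by DESeq2, 9 with the block), and of the 25 proliferation genes 0 (0 at an unadjusted p under 0.05, 0 by DESeq2, 8 with the block). Among 23 EGFR and MAPK response genes 8 were lower and 1 higher, with EREG (−3.38 ± 0.57, edgeR adjusted p = 0.0144) and PHLDA1 (−3.81 ± 0.60, edgeR adjusted p = 0.0113) among the lower. EMP1 stands in both the differentiation and the EGFR list.

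With line means subtracted, the log2 levels of KLF5 and ELF3 followed each other over the 12 samples (Pearson r = 0.954), as did KLF5 and OVOL1 (r = 0.927). The 12 samples share lines, treatment and replicate numbers, so these are descriptions. Among 2721 other genes with a mean of at least 50 CPM, ELF3 was most like ID1 (r = 0.977), EBPL and AQP3 (r = 0.954), and KLF5 most like TRAF7 (r = 0.972), ID1 (r = 0.971) and IGFBP6. PITX1 was closest to PCBD1 (r = 0.952), COQ4 and S100A14 (r = 0.951), and TP63 to PAK2 (r = 0.951), MAZ and BRI3. For 5 other members the closest genes were FGFBP1 for KLF4, CD68 for GRHL1, MARCH6 for GRHL2, LRRC59 for GRHL3 and TRAF7 for OVOL1, at r between 0.893 and 0.954. Without subtraction of line means, EHF was most like MRPL23 (r = 0.972), TP63 most like PPFIA1 (r = 0.963) and PITX1 most like LAD1 (r = 0.96).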

How the data were processed

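ScRNA-seq (10x Chromium 3′ v2) had been carried out on SCC1, SCC6 and SCC25. The deposited tables hold UMI counts per gene and cell, 1 table per line, made by the authors with Cell Ranger on GRCh38 (per the submitters' processing notes, versions not given in the sources used here). Cells were assigned to samples by the deposited cell annotation, groups and replicate numbers came from the labels, and 0 columns of per-sample values were left unused. No cell was removed for the main results and doublets were not called. Alternatives left out the 5% of cells of most UMIs, or cells over 20% mitochondrial UMIs.

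Counts were summed per sample over 33514 symbols (24 stood on several rows and were added). EdgeR 4.0.16 (R 4.3.3) was run with TMM, filterByExpr, 6 group means and the quasi-likelihood F-test with Benjamini-Hochberg adjustment over 17897 genes. A model of line and treatment gave the value across lines. DESeq2 1.42.0 was an alternative. Deviations of same-number samples from their group means correlated at 0.377 in SCC1, 0.349 in SCC6 and 0.598 in SCC25, so the numbers were taken to pair the samples, and the replicate block (replicate within line) is given where it changed a call. The edgeR fit without the block was tested on simulated counts with known changes in SCC6. The replicate block, DESeq2 and the single-cell steps were not tested this way.

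Cells were thinned without replacement to 15000 UMIs, leaving out 851. Named genes were the 10 members, for each the 3 genes of highest Pearson r (log2 CPM, prior count 2), and up to 3 genes of smallest p per list. CEBPB was named after its values were seen. Members, lists, motifs and tests were chosen with earlier results of these data known. Values of 2 genes that these rules would name are not reported here.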

Additional observations from a re-analysis of the deposited data

Results flagged for a closer look

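The cetuximab change of ELF3 differed between lines with the replicate block (edgeR interaction test, adjusted p = 0.0354), and did not pass without it (adjusted p = 0.709) or with a block shared by the lines (adjusted p = 0.324). Over the same-number pairs SCC1 averaged a log2 ratio of −0.316, SCC6 one of −2.22 and SCC25 one of −1.12, lower in both pairs of every line.

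Other members moved one way in both pairs of one line and the opposite way in both pairs of another. TP63 was lower in both SCC1 pairs and higher in both SCC6 pairs, a difference of 0.958 between the mean log2 ratios. KLF5 was higher in both SCC1 pairs and lower in both pairs of SCC6 and SCC25, with differences of −1.48 and −0.857. OVOL1 did the same, with differences of −0.969 and −0.84. In the second SCC1 pair the ratio was only 1.01 for KLF5 and 1.02 for OVOL1. The edgeR interaction test did not pass for these genes, with adjusted p of 0.982, 0.58 and 0.769 without the block and 0.0929, 0.0664 and 0.276 with it.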

How the results depend on the processing

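With the replicate block, members called rose to 6 in SCC6, 2 in SCC25, 3 across lines and 1 for the interaction, and changed no other member's call. A block shared by the lines gave 6 in SCC6, 0 in SCC25, 2 across lines, 0 for the interaction and 4 for SCC6 over SCC1 PBS. DESeq2 gave 1 in SCC25, 2 across lines and 1 for the interaction. Without the low-count filter 2 were called across lines, and in cells of low proliferation share, an alternative chosen after seeing the data, 3. Fitting only the 4 samples of SCC6 left 1. Cells without any proliferation UMI numbered 2 to 97 per sample, and there 8 members were tested and 0 called in SCC6, across lines and between PBS of SCC1 and either other line, and 1 for SCC25 over SCC6. The median log2 change of the members in SCC6 was −1.14 there, and 49 of 7602 genes were called. Leaving out 1 sample at a time gave 0 to 4 members in SCC6, 0 to 1 across lines, and 2 to 4 for SCC25 over SCC1 PBS. The replicate block could not be fitted between lines. In SCC1 the log2 change of TP63 turned to 0.051, of KLF5 to −0.25 and of OVOL1 to −0.23 in cells without proliferation UMIs, and in those of low share KLF5 turned to −0.024 and OVOL1 to −0.14. Without 1 SCC1 sample, TP63 ranged from −0.472 to 0.058 and KLF5 from −0.027 to 0.308. The cause was not tested. Of the other log2 changes of single members, leaving out a sample kept 115 on their side of the threshold, took 32 below it and brought 3 past it, and the other settings kept 252, took 16 below and brought 19 past. Of 120 positive shares recomputed at another depth, 104 moved by more than 1 SD, as a share depends on depth.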
